A study of Mus musculus with 79 samples.

Results

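Keratins are the intermediate filament proteins of epithelial cells, and the genes described here are all those whose symbol on the array is Krt followed by a number and, in some, a letter. The rule found 49 keratin genes among the 19505 genes measured, each by 1 probe set. By the tissue in which they are best known, 6 are keratins of simple epithelium (Krt7, Krt8, Krt18, Krt19, Krt20 and Krt23), 33 are keratins of skin and hair, and 10 are neither. The skin and hair keratins divide into 3 basal epidermal, 7 suprabasal epidermal, 3 stress and appendage, 8 inner root sheath and 12 hair shaft genes. Krt74, counted with the inner root sheath genes, is listed in the RefSeq annotation as a transcribed pseudogene. Krt6a, Krt6b, Krt81, Krt83, Krt85 and Krt87 were not analysed here.

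RNA was measured in 79 whole tumors, each from 1 female C57BL/6J mouse, grown from 1 of 3 lines of mouse triple-negative breast cancer injected into the 4th mammary fat pad. E0771 is a mammary carcinoma line of the C57BL/6 strain, while metM-Wnt-lung is a metastatic subclone of the M-Wnt line, derived from a Wnt-1-driven mammary tumor, that was isolated from a lung lesion, and metM-Wnt-liver a subclone from a liver lesion, so each is 1 derived line. Mice were diet-induced obese on a diet with 60% fat and given 140 ppm sulindac in it (DIOSul), obese without drug (DIO), on the control diet with 140 ppm sulindac (ConSul), or on the control diet without drug (Con), and the cells were injected after 5 weeks on or off the drug. Sulindac is a nonsteroidal anti-inflammatory drug that inhibits COX1 and COX2. In that order of groups there were 8, 8, 6 and 6 E0771 tumors, 7, 7, 6 and 6 metM-Wnt-lung tumors, and 7, 7, 4 and 7 metM-Wnt-liver tumors. Values are log2 array signals as deposited; levels of different genes are not compared, since each probe set has its own brightness. In whole tumors, fewer cells of a type and less RNA per cell cannot be told apart.

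Keratin filaments are built from pairs of a type I (acidic) and a type II (basic) protein. Simple epithelium, which includes the luminal cells of the mammary gland, is known for the pair Krt8 with Krt18 together with Krt7 and Krt19. Basal epidermal and myoepithelial cells are known for Krt5 with Krt14, and the differentiating epidermis above them for Krt1 with Krt10. In the mouse genome (RefSeq, GRCm38.p6) the genes lie in a pair of clusters, with 27 of the 49 on chromosome 11 and 22 on chromosome 15; Krt18, a type I gene, lies in the type II cluster with 0 protein-coding genes between it and Krt8.

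Promoter windows from RefSeq (GRCm38.p6), reaching 250 bases before to 50 bases after the listed start, were found for 36 of the 49 keratins. They were searched on both strands for the TATA box letters TATAAA and for the GC box letters GGGCGG, which cannot overlap each other. TATAAA was present in 52.8% of the keratin windows (19 of 36) and in 13.6% of all 32851 windows; by class it was in 7 of 7 inner root sheath, 6 of 9 hair shaft, 2 of 5 simple-epithelial, 1 of 6 suprabasal and 0 of 2 basal keratins. GGGCGG was present in 5.56% of the keratin windows (2 of 36) and in 35.7% of all windows. A match is only a description of these letters. Shown here, 5′ to 3′ on the strand of the gene, are the 250 bases before the start of the genes on which the results turn most, with capitals marking either motif: Krt8 (chr15:102004343-102004592, minus strand) and its partner Krt18 (chr15:102027966-102028215, plus strand), which lie side by side and moved differently among the tumors; Krt7 (chr15:101412153-101412402, plus strand), which moved with Krt18; and Krt10 (chr11:99389365-99389614, minus strand), which was highest in the 3 tumors high in skin genes.
Krt8: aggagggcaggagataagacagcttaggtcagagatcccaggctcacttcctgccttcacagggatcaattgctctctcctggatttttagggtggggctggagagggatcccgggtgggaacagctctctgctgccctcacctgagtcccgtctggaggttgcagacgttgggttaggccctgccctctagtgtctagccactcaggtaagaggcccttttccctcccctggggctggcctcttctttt
Krt18: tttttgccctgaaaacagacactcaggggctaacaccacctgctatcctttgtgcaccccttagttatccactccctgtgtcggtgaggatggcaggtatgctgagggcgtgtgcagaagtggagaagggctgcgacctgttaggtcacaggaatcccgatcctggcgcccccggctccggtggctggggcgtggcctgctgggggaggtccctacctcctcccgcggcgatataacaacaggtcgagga
Krt7: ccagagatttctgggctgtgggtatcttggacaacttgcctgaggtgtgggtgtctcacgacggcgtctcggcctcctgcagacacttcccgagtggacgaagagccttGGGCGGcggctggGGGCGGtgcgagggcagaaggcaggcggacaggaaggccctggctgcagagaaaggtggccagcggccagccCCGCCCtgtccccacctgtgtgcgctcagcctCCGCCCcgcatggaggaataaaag
Krt10: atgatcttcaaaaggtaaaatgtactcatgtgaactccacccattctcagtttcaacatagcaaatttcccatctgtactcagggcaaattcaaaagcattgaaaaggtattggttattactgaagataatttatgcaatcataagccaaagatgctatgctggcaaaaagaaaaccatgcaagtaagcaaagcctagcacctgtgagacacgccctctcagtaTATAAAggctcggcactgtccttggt
The Krt7 stretch held 4 copies of GGGCGG or its reverse, the Krt10 stretch held 1 TATAAA, and those of Krt8 and Krt18 held neither. The full Krt8 window, which adds the 50 bases after the start, held TATAAA or its reverse.

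Some tumors stood apart before any keratin was compared. All 6 metM-Wnt-lung Con and all 4 metM-Wnt-liver ConSul arrays had a wider spread of signals than the other 41 metM-Wnt arrays: their 1st percentiles were 3.10 to 3.15, against 3.19 to 3.27. Within each of those lines the wider spread cannot be told apart from the group. The same arrays were also high in adipocyte genes: the mean log2 level of the adipocyte list had its lowest, median and highest values at 8.66, 10.72 and 14.48 in metM-Wnt-lung Con and at 9.44, 10.62 and 11.96 in metM-Wnt-liver ConSul, against medians of 4.73 and 7.01 in metM-Wnt-lung DIO and metM-Wnt-liver Con. In the 28 E0771 arrays the 1st percentiles were 3.14 to 3.45, which overlapped both sets of metM-Wnt arrays. The E0771 group medians of the adipocyte list were 9.07 to 10.28, so E0771 tumors were high in it too. Separately, 3 tumors (E0771 DIOSul 3, metM-Wnt-lung DIOSul 2 and metM-Wnt-liver DIOSul 4) were high in 22 skin keratinocyte genes that are not keratins, with mean centred scores of 3.02 to 3.73 (over 1 was taken as high), while the other 76 tumors lay between -0.53 and 0.80. Vim, an intermediate filament gene of mesenchymal cells, was at 16.85 to 18.31 in all 79 tumors, and Epcam, which marks epithelial cells, ran from 2.95 to 10.82. E0771 DIO 8 had a 1st percentile of 3.45 and a lowest signal of 3.07, both the highest of the 79 arrays. Its keratin signals lay close to its group mean, with Krt1, Krt10, Krt12 and Krt13 at 4.33, 5.13, 4.45 and 4.15. The group means, which include it, were 4.33, 5.18, 4.46 and 4.18. Krt8 was at 8.69 and Krt20 at 4.84 in it, where the E0771 DIO tumors ran from 6.03 to 11.36 and from 3.62 to 7.71. Its label names a separate mouse, and it was counted as 1 of the 8 E0771 DIO tumors. Whether it is independent of the others cannot be told from these values. If it is not, the tests with that group count too many tumors. Why it lay so close was not tested.

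The ranges of single keratins over the 79 tumors differed between classes. The 12 hair shaft keratins had a median range of 1.85 (up to 2.38) and the 5 mucosal and corneal ones 1.89 (up to 2.11), against 2.25 over all genes. The median range was 7.54 for the 6 simple-epithelial keratins, 6.35 for the suprabasal and 9.57 for the basal epidermal ones. In all, 13 keratins passed a log2 signal of 8 in at least 1 tumor. Most had low signals: 33 of the 49 lay under the median of the array in all 79 tumors, as did 7464 of all 19505 genes. The 33 include all 12 hair shaft and 7 of the 8 inner root sheath keratins. The wide ranges came from Krt8 in many tumors, from Krt7, Krt18 and Krt19 in fewer, and from the epidermal keratins in a handful.

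Krt8, the type II filament protein of simple epithelium, had the widest differences of any keratin between metM-Wnt-lung and the other lines. In metM-Wnt-lung tumors its lowest, median and highest log2 signals were 12.50, 14.66 and 15.17 in DIOSul, 13.97, 14.86 and 15.88 in DIO, 12.20, 14.43 and 14.98 in ConSul, and 9.58, 11.68 and 12.66 in Con. In metM-Wnt-liver tumors they were 5.40, 7.13 and 9.34 in DIOSul, 5.31, 8.19 and 13.58 in DIO and 5.04, 7.51 and 14.22 in Con, and the 4 ConSul tumors had 13.07, 11.58, 6.31 and 5.72. Apart from Con, the metM-Wnt-lung tumors were therefore uniformly high, whereas the metM-Wnt-liver tumors split: 19 lay at 5.04 to 9.60 and 6 at 11.58 to 14.22 (2 DIO, 2 ConSul and 2 Con), with a gap of 1.98 between them. The tumors of metM-Wnt-lung did not overlap those of metM-Wnt-liver within DIOSul or within DIO, but did within ConSul and within Con.

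Averaged over the 4 conditions, Krt8 was 5.32 log2 units higher in metM-Wnt-lung than in metM-Wnt-liver tumors (SE 0.57, limma, adjusted p = 9.82e-12). It was the 1 keratin of 49 called between these lines, where 17.3% of all genes were called (adjusted p under 0.05 over all 19505 genes). Within conditions the difference was 7.52 in DIOSul, 6.47 in DIO, 4.90 in ConSul (adjusted p = 0.00767) and 2.41 in Con (adjusted p = 0.0981). Averaged over DIOSul and DIO alone, the conditions free of arrays of wider spread, it was 6.99. The Con difference therefore missed the threshold. For Krt7, Krt18 and Krt19 the average joins opposite differences, read by condition after seeing the data: metM-Wnt-lung minus metM-Wnt-liver was 2.19, 2.11 and 3.31 within Con (adjusted p = 0.000982, 0.0132 and 0.00232, limma) and -2.39, -2.24 and -3.12 within ConSul (adjusted p = 0.00574, 0.047 and 0.0305). Within each of these conditions 6 keratins were called, where 27.2% and 11.1% of all genes were, and 1 of the groups compared holds the arrays of wider spread.

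E0771 tumors had intermediate Krt8. The lowest, median and highest signals were 6.12, 9.13 and 11.35 in DIOSul, 6.03, 8.77 and 11.36 in DIO, 7.16, 10.03 and 11.18 in ConSul, and 6.92, 9.51 and 12.21 in Con. They lay wholly below the metM-Wnt-lung tumors within DIOSul, DIO and ConSul and overlapped them within Con. The difference, E0771 minus metM-Wnt-lung, was -4.33 (SE 0.55, adjusted p = 9.95e-11) over all conditions and -1.62 within Con alone (adjusted p = 0.279). Against metM-Wnt-liver it was 0.99 (SE 0.56, adjusted p = 0.12), which did not pass.

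**Figure D1:**
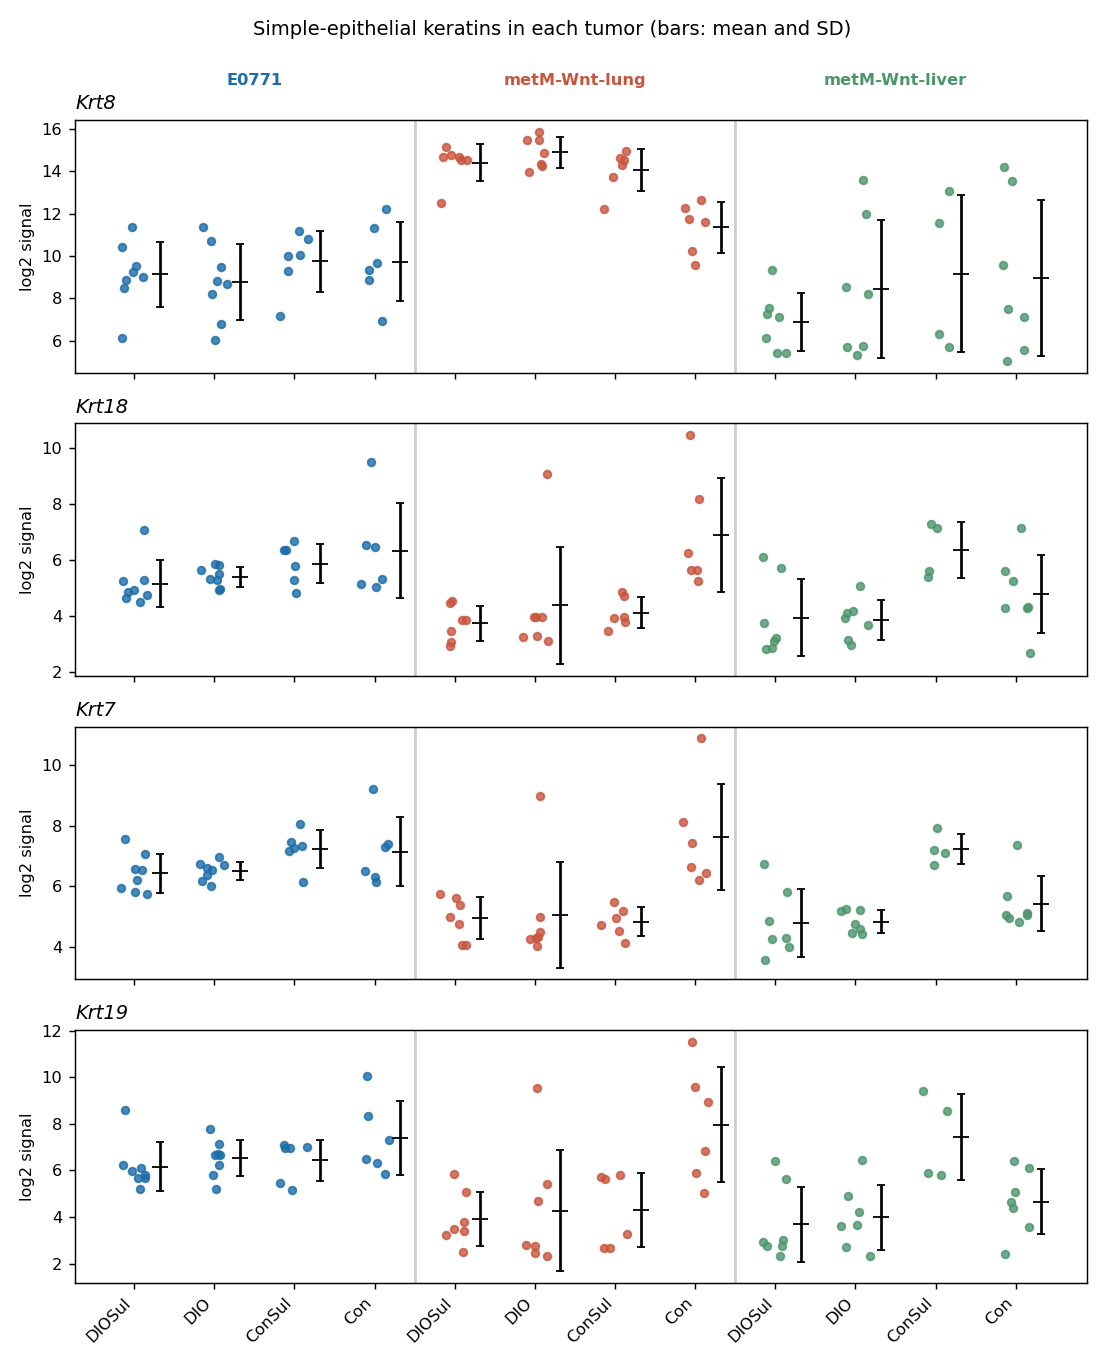
Log2 array signal of Krt8, Krt18, Krt7 and Krt19 in each of the 79 tumors (vertical axes, 1 panel a gene), in the 12 groups of line and condition (horizontal axis, DIOSul, DIO, ConSul and Con within each line); points are tumors and bars the group mean and SD. The metM-Wnt-lung DIOSul, DIO and ConSul tumors sit between 12.20 and 15.88 for Krt8, while the Con tumors of metM-Wnt-lung and the ConSul tumors of metM-Wnt-liver sit high within their lines for Krt7, Krt18 and Krt19.

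The other simple-epithelial keratins did not follow Krt8. Krt18, the type I partner of Krt8, had its lowest, median and highest signals at 4.49, 5.30 and 9.51 in E0771 tumors, 2.94, 3.96 and 10.46 in metM-Wnt-lung tumors and 2.67, 4.29 and 7.30 in metM-Wnt-liver tumors. It was 0.91 higher in E0771 than in metM-Wnt-lung tumors (SE 0.33, adjusted p = 0.013) and 0.95 higher than in metM-Wnt-liver tumors (SE 0.34, adjusted p = 0.0111), although the lines overlapped. Krt18 was thus lower, not higher, in metM-Wnt-lung than in E0771 tumors, the reverse of Krt8. Averaged without the condition that holds arrays of wider spread (Con against metM-Wnt-lung, ConSul against metM-Wnt-liver), the Krt18 differences were 1.40 and 1.43.

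Krt7, a type II keratin of ducts and glands, and Krt19, a type I keratin of luminal cells, were called in the same direction as Krt18. The signals of Krt7 were 5.73, 6.58 and 9.20 (lowest, median and highest) in E0771 tumors, 4.05, 5.00 and 10.87 for metM-Wnt-lung, and 3.58, 5.04 and 7.92 for metM-Wnt-liver. Its differences were 1.21 for E0771 minus metM-Wnt-lung (SE 0.26, adjusted p = 3.5e-05) and 1.25 for E0771 minus metM-Wnt-liver (SE 0.27, adjusted p = 2.94e-05). The E0771 tumors were high as a set but overlapped the others at the top, where the Con tumors of metM-Wnt-lung and the ConSul tumors of metM-Wnt-liver lay. Krt19 had 5.15, 6.40 and 10.06 in E0771 tumors, 2.31, 4.86 and 11.52 for metM-Wnt-lung, and 2.34, 4.37 and 9.42 for metM-Wnt-liver, and differed by 1.52 (SE 0.42, adjusted p = 0.00125) and 1.69 (SE 0.43, adjusted p = 0.00047). Within Con alone, E0771 minus metM-Wnt-lung turned to -0.48 for Krt7, -0.57 for Krt18 and -0.58 for Krt19, and within ConSul alone, E0771 minus metM-Wnt-liver turned to -0.49 for Krt18 and -0.98 for Krt19. Con against metM-Wnt-lung and ConSul against metM-Wnt-liver hold the arrays of wider spread. With that condition left out of both lines, the differences against metM-Wnt-lung and metM-Wnt-liver were 1.77 and 1.67 for Krt7 and 2.22 and 2.58 for Krt19. The metM-Wnt arrays that this leaves out were high in adipocyte genes, as the E0771 arrays were. Markers of other cells differed in the same comparisons: 8 of 9 adipocyte genes were higher in E0771 in each (medians 2.79 and 2.74), and of 16 epithelial genes that are not keratins 7 were higher and 3 lower against metM-Wnt-lung (median 0.25) and 10 higher and 2 lower against metM-Wnt-liver (median 0.35). Their part in the keratin differences was not tested.

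Krt20, known from intestine and urothelium, spanned 3.61 to 7.71 for E0771, 3.40 to 6.63 for metM-Wnt-lung and 3.36 to 6.27 for metM-Wnt-liver, and Krt23, another type I keratin, 3.12 to 5.09, 3.45 to 5.67 and 3.19 to 5.19. Neither was called between lines.

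Over the whole family, 17 of 49 keratins were called for E0771 against metM-Wnt-lung, 13 higher and 4 lower in E0771, where 63.1% of all genes were called (33.9% higher and 29.2% lower). Against metM-Wnt-liver, 16 of 49 were called, 12 higher and 4 lower in E0771, where 62.8% of all genes were called (33.5% higher and 29.3% lower). Both shares are below the share of all genes. Most keratins had low signals, as given above, and the part of that in these shares was not tested. Of the 6 simple-epithelial keratins, 3 were higher and 1 was lower in E0771 than in metM-Wnt-lung tumors (median difference 0.38) and 3 were higher than in metM-Wnt-liver tumors (median 0.97). Of the 33 skin and hair keratins, 6 were higher and 3 lower (median 0.02), and 6 higher and 2 lower (median 0.08), and the median over all genes was 0.02 in both comparisons. Of the 10 remaining keratins, 4 were higher and 0 lower against metM-Wnt-lung, and 3 higher and 2 lower against metM-Wnt-liver.

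The called skin and hair keratins moved by less than 1 log2 unit. Of the keratins named below, Krt26, Krt33a, Krt36, Krt39 and Krt76 lay under the median of the array in all 79 tumors. Whether such low signals stand above background is not known. Krt39, a type I keratin of the hair shaft, had 4.02, 4.67 and 5.60 in E0771 tumors, 3.30, 3.89 and 4.73 for metM-Wnt-lung, and 3.36, 3.89 and 5.17 for metM-Wnt-liver (lowest, median and highest). It was 0.71 higher in E0771 than in metM-Wnt-lung (adjusted p = 1.25e-08) and 0.61 higher than in metM-Wnt-liver tumors (adjusted p = 1.09e-06), with overlap between all lines. The inner root sheath keratin Krt26 was lower in E0771 in both comparisons, by -0.40 and -0.37. Krt33a (0.24, hair shaft) and Krt17 (-0.46, an appendage keratin) were called against metM-Wnt-lung, and Krt15 (0.47, basal and hair follicle bulge), Krt36 (-0.33, hair shaft), the palate keratin Krt76 (-0.21) and Krt80 (-0.64, differentiated epithelia) against metM-Wnt-liver. Krt33a turned to -0.06 within DIO and -0.05 within DIOSul alone, and Krt76 turned to 0.57 within ConSul alone. Among 79 fits that left out 1 tumor each, Krt17 lost its call in 16 (-0.52 to -0.31), Krt76 in 11 and Krt33a in 3.

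**Figure D2:**
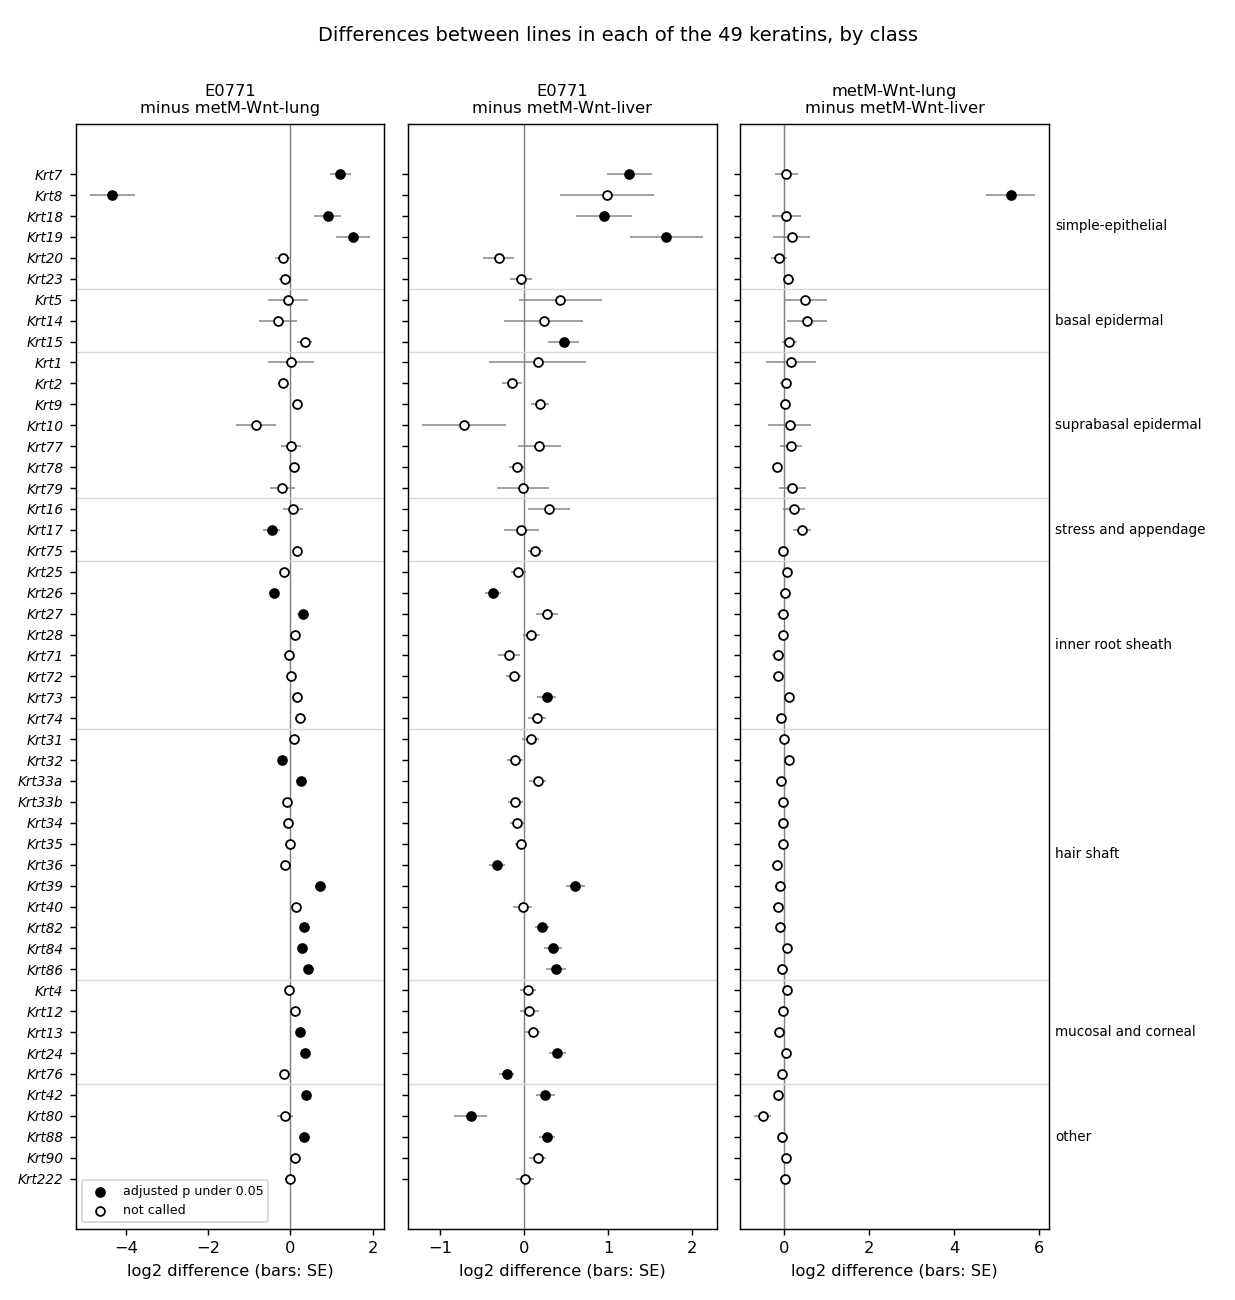
Log2 difference of each of the 49 keratins (rows, by class) between lines, with E0771 minus metM-Wnt-lung, E0771 minus metM-Wnt-liver and metM-Wnt-lung minus metM-Wnt-liver in the 3 panels (horizontal axes in log2 units, with scales that differ between panels); dots are the limma estimates, bars 1 SE, and filled dots have an adjusted p under 0.05. Krt8 stands alone at -4.33 in the first panel and 5.32 in the last.

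Desmosomes anchor keratin filaments at cell contacts, and vimentin, nestin and the lamins are intermediate filament proteins of other kinds. The counts that follow stand beside 17.3% of all genes called between the metM-Wnt lines, 33.9% higher and 29.2% lower in E0771 against metM-Wnt-lung, and 33.5% higher and 29.3% lower against metM-Wnt-liver. Of 9 desmosome genes, 3 were higher and none was lower for metM-Wnt-lung than for metM-Wnt-liver tumors (median 0.33, against -0.01 over all genes): Jup (plakoglobin) by 1.30, Pkp3 by 1.21 and Pkp1 by 1.08, both plakophilins. In E0771 against metM-Wnt-lung tumors 1 was higher and 3 were lower (median -0.32), with Jup at -4.11 (adjusted p = 2.25e-28), Pkp3 at -1.85, Pkp1 at -1.05 and Pkp2 at 1.93. In E0771 against metM-Wnt-liver tumors 1 was higher and 3 were lower (median -0.17), with Jup at -2.81 and Pkp2 at 2.26. Of 9 other intermediate filament genes, 6 were higher and 1 lower in E0771 in both comparisons, among them Nes (nestin) by 2.36 and 2.52 and Prph (peripherin) by 2.02 and 1.91, and 0 were called for metM-Wnt-lung against metM-Wnt-liver, where 2 had an unadjusted p under 0.05.

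Partner keratins were compared across tumors within each line, after removing the mean of each condition, in 9 correlations with permutation tests adjusted over the 9. Krt8 and Krt18 were weakly related: r was 0.18 in E0771 (rho 0.07, n = 28, permutation p = 0.367, adjusted 0.413), 0.08 in metM-Wnt-lung (rho 0.00, n = 26, permutation p = 0.712, adjusted 0.712) and 0.39 in metM-Wnt-liver (rho 0.33, n = 25, permutation p = 0.0532, adjusted 0.0684). Without the 2 tumors farthest from the Krt8 median, r was 0.24, 0.10 and 0.42. Where condition means were kept, r was -0.48 for metM-Wnt-lung (rho -0.65, adjusted permutation p = 0.017), in which Con was low in Krt8 and high in Krt18, and 0.41 for metM-Wnt-liver (rho 0.45, adjusted permutation p = 0.0456).

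The epidermal partners were more closely related within conditions. For Krt5 with Krt14, r was 0.90 in E0771 (rho 0.56, permutation p = 0.00014, adjusted 0.00021), 0.94 in metM-Wnt-lung (rho 0.81, permutation p = 1e-05, adjusted 2.25e-05) and 0.90 in metM-Wnt-liver tumors (rho 0.65, permutation p = 2e-05, adjusted 3.6e-05). For Krt1 with Krt10, r was 0.95 (rho 0.71), 0.93 (rho 0.57) and 0.98 (rho 0.75) in the same order of lines, each with a permutation p of 1e-05, the smallest that 100000 permutations can give. In each line 1 tumor was high in skin genes, and the E0771 value for Krt5 with Krt14 rested on it. Without that tumor, r for Krt5 with Krt14 was 0.23 in E0771 (adjusted p = 0.321, permutation test), 0.91 for metM-Wnt-lung and 0.69 for metM-Wnt-liver, and r for Krt1 with Krt10 was 0.52, 0.75 and 0.89. Without the 2 tumors farthest from the median, r was 0.55, 0.86 and 0.56 for Krt5 with Krt14, and 0.70, 0.77 and 0.90 for Krt1 with Krt10. Here the condition means were removed before the 2 tumors were dropped. The tumor high in skin genes thus still shifted the other DIOSul tumors of its line, in both genes alike. These values, and the r and rho of all tumors, are therefore not free of that tumor. Where condition means were kept, r for Krt1 with Krt10 was 0.93, 0.93 and 0.96 but rho was 0.39, 0.21 and 0.38 (adjusted permutation p = 0.072, 0.352 and 0.0952), and rho for Krt5 with Krt14 in E0771 was 0.23 (adjusted permutation p = 0.301), so the ranks did not pass in these 4.

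**Figure D3:**
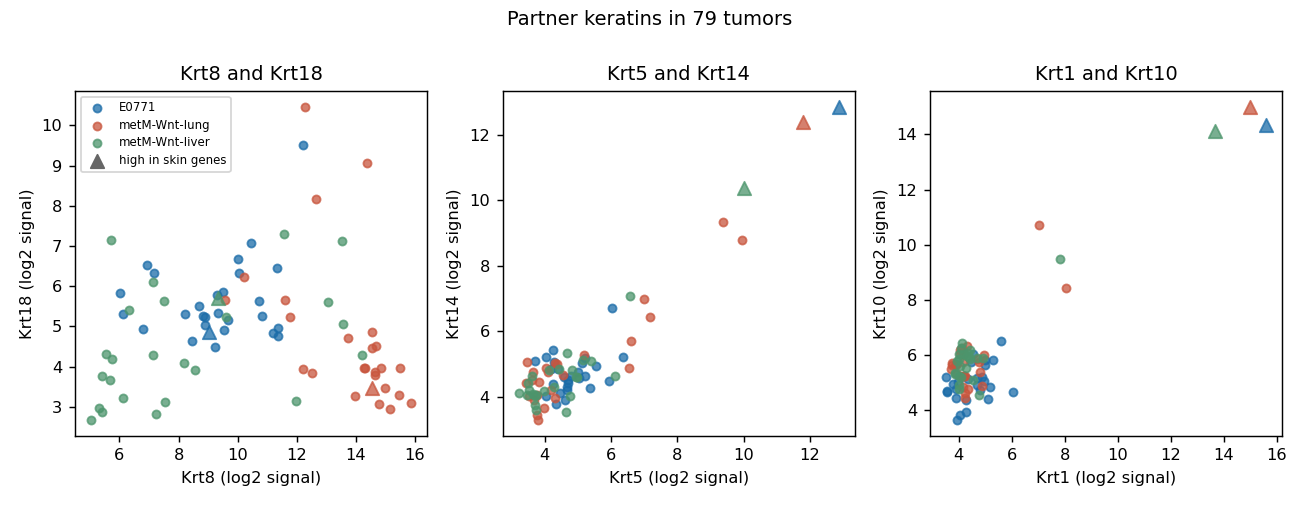
Log2 signals of partner keratins plotted against each other, 1 point a tumor, with lines by color and the 3 tumors high in skin genes as triangles (horizontal axis the type II gene, vertical axis its type I partner, 1 panel a pair). Krt5 with Krt14 and Krt1 with Krt10 lie along a diagonal that the 3 triangles extend, while Krt8 with Krt18 shows no such line.

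In metM-Wnt-lung tumors, Krt8 was higher, and Krt7, Krt18 and Krt19 were lower, in DIO and in ConSul than in Con. Krt8 was 3.55 higher in DIO than in Con (SE 0.49, adjusted p = 1.19e-05), with no overlap between the 7 and 6 tumors, and 2.72 higher in ConSul than in Con (SE 0.51, adjusted p = 0.000747), with overlap. Krt7 had 4.05, 4.32 and 8.96 (lowest, median and highest) in DIO and 4.14, 4.85 and 5.47 in ConSul, against 6.21, 7.04 and 10.87 in Con. It fell by 2.56 in DIO (SE 0.67, adjusted p = 0.0063) and by 2.79 in ConSul (SE 0.70, adjusted p = 0.00764); ConSul and Con did not overlap, and among the DIO tumors 1, replicate 4, reached into the Con range.

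Krt18 and Krt19 followed Krt7. Krt18 had 3.10, 3.96 and 9.07 in DIO and 3.46, 3.95 and 4.87 in ConSul, against 5.24, 5.95 and 10.46 in Con, with differences of -2.53 for DIO (SE 0.79, adjusted p = 0.0185) and -2.78 for ConSul (SE 0.82, adjusted p = 0.0196). Krt19 had 2.31, 2.79 and 9.52 in DIO and 2.65, 4.44 and 5.79 in ConSul, against 5.04, 7.88 and 11.52 in Con, with differences of -3.70 (SE 1.05, adjusted p = 0.0107) and -3.68 (SE 1.09, adjusted p = 0.021). The highest DIO tumor was again replicate 4 and the highest Con tumor was replicate 4 of that group. Without Con replicate 4, the Krt18 differences were -1.81 for DIO (adjusted p = 0.0633) and -2.07 for ConSul (adjusted p = 0.0592), and that of Krt19 for ConSul was -2.97 (adjusted p = 0.0636); without ConSul replicate 5 the Krt19 difference for ConSul was -3.35 (adjusted p = 0.0517).

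In all, 10 of 49 keratins were called for DIO against Con in metM-Wnt-lung tumors, with 4 up and 6 down, where 27.4% of all genes were called (14.0% higher and 13.4% lower), a larger share than of the keratins. For ConSul against Con it was 7 of 49, 2 higher and 5 lower, where 17.4% of all genes were called (8.40% higher and 9.01% lower), again the larger share. Of the 6 simple-epithelial keratins, 1 was higher and 3 were lower in both comparisons, with median differences of -1.17 and -1.39, and of the 33 skin and hair keratins 2 were higher and 2 lower in DIO and 0 were higher and 2 lower in ConSul (medians 0.10 and 0.06, against 0.04 and 0.03 over all genes). These comparisons share the Con tumors. Krt80 had 4.74, 6.33 and 7.03 in DIO and 7.22, 7.87 and 8.27 in Con, with no overlap, and fell by 1.82 (SE 0.35, adjusted p = 0.000442). Small differences with an adjusted p under 0.05 were those of Krt33a (0.67), Krt71 (0.66, inner root sheath) and Krt76 (0.53) for DIO and Krt76 (0.70) for ConSul; Krt82 (-0.47 and -0.42) and Krt86 (-0.60 and -0.63), hair shaft keratins chosen after their values were seen, were called in both.

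All 6 metM-Wnt-lung Con arrays had the wider spread and high adipocyte signal described above, and other epithelial genes moved as well. Of 9 adipocyte genes, 8 were lower in DIO than in Con (median -5.13) and 8 in ConSul than in Con (median -4.88). Of 16 epithelial genes that are not keratins, 4 were lower in each (medians -0.61 and -0.59), and Epcam averaged 4.79 in DIO and 4.79 in ConSul, against 7.40 in Con. A further limma fit held the metM-Wnt lines alone, with 1 effect of each condition shared by both and a term for the wider spread. In it 0 keratin differences from Con were called for DIO or ConSul, where 0.672% and 0.0513% of all genes were called. Krt8 was at 0.70 for DIO (adjusted p = 0.895) and 1.20 for ConSul (adjusted p = 0.759), and Krt7 at -0.45 (adjusted p = 0.817) and -0.52 (adjusted p = 0.775). Every metM-Wnt-lung Con array carried the term, so this fit gave no DIO or ConSul effect for metM-Wnt-lung alone. It cannot decide whether the differences seen in metM-Wnt-lung belong to the condition or to the wider spread. With the mean levels of the epithelial and adipocyte lists as covariates, a fit added after seeing the data, Krt8 was at 3.33 (adjusted p = 0.132) and 2.64 (adjusted p = 0.115), while Krt18 and Krt19 turned to 0.65 and 1.22 for DIO and to 0.22 and 0.71 for ConSul.

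For DIOSul against DIO in metM-Wnt-lung tumors, a comparison free of the arrays of wider spread, 0 of 49 keratins were called, where 0.246% of all genes were called; 6 had an unadjusted p under 0.05. Krt8 kept its high level in both groups, as given above.

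In metM-Wnt-liver tumors, 3 of 49 keratins were called for ConSul against Con, all 3 higher, where 11.4% of all genes were called (5.76% higher and 5.65% lower). Krt7 had 7.11, 7.18, 6.71 and 7.92 in the 4 ConSul tumors, against 4.81, 5.04 and 7.37 (lowest, median and highest) in Con, a difference of 1.80 (SE 0.47, adjusted p = 0.0142). Krt19 had 5.80, 8.54, 5.89 and 9.42, against 2.42, 4.65 and 6.42, a difference of 2.75 (SE 0.87, adjusted p = 0.0401). The ConSul tumors were high in both genes and overlapped the top Con tumors. Krt39 had 5.17, 4.55, 4.10 and 5.01, against 3.36, 3.89 and 4.59, a difference of 0.79 (SE 0.25, adjusted p = 0.0437), and Krt18 had 5.61, 7.30, 5.40 and 7.15, against 2.67, 4.32 and 7.13, a difference of 1.57 that did not pass (SE 0.67, adjusted p = 0.13). Here all 4 ConSul arrays had the wider spread: 8 of 9 adipocyte genes (median 3.65) and 2 of 16 epithelial genes (median 0.47) were higher. The fit with a term for the wider spread estimates 1 ConSul effect shared by both metM-Wnt lines and none for metM-Wnt-liver alone. In it 0 keratins were called (0.0513% of all genes), and that shared effect was -0.52 for Krt7 and -0.48 for Krt19. Without ConSul replicate 4, 0 were called as well (Krt7 1.57, adjusted p = 0.0573; Krt19 2.08, adjusted p = 0.159), and 1 was called without ConSul replicate 2 or without Con replicate 1, 2 or 5.

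The remaining comparisons called few keratins. In metM-Wnt-liver tumors 0 of 49 were called for DIO against Con and 0 for DIOSul against DIO, where 0% of all genes were called in each; 2 keratins in each had an unadjusted p under 0.05. In E0771 tumors 1 of 49 was called for DIO against Con, where 5.17% of all genes were called. That keratin was Krt28, of the inner root sheath, with 3.56, 3.83 and 4.23 in DIO and 4.00, 4.30 and 5.01 in Con, overlapping between groups. Krt28 fell by 0.61 (SE 0.18, limma, adjusted p = 0.0494) and lost its call in 21 of 28 fits that left out 1 E0771 tumor. The DIO tumors include E0771 DIO 8 (3.82), which lay close to its group mean as described above. For DIOSul against DIO, 0 of 49 were called, where 5.03% of all genes were called, and for ConSul against Con 0 of 49, where 0% were; 6 and 4 keratins had an unadjusted p under 0.05.

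**Figure D4:**
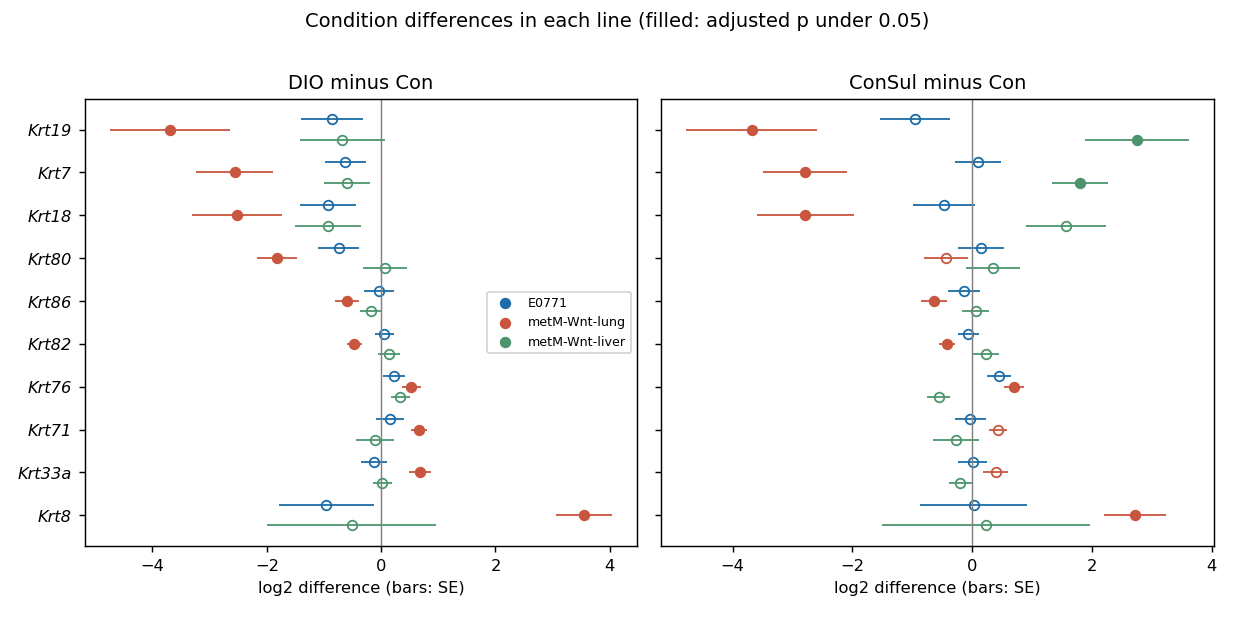
Log2 differences DIO minus Con and ConSul minus Con (panels) for 10 keratins (rows) in each of the 3 lines (colors); dots are limma estimates, bars 1 SE, and filled dots have an adjusted p under 0.05 (horizontal axis in log2 units). In metM-Wnt-lung tumors Krt8 lies to the right at 3.55 and 2.72 while Krt7, Krt18 and Krt19 lie to the left, and in metM-Wnt-liver tumors ConSul moves Krt7 and Krt19 to the right.

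The differences between effects were tested directly in 12 interactions. They gave 18 calls in 14 of the 49 keratins, where 36.2% of all genes had a call in at least 1 of the 12. Of these, 11 calls came from ConSul minus Con in metM-Wnt-lung less that in metM-Wnt-liver tumors, where 29.9% of all genes were called and both groups of wider spread enter with opposite signs. Krt7 (-4.59, adjusted p = 9.41e-06), Krt19 (-6.43, adjusted p = 0.000109) and Krt18 (-4.35, adjusted p = 0.000718) had the largest differences in it. The effect of DIO on Krt8 in metM-Wnt-lung less that in metM-Wnt-liver tumors was 4.06 (adjusted p = 0.0723), and in E0771 less that in metM-Wnt-lung tumors -4.51 (adjusted p = 0.0604), so neither difference passed. The 7 other calls were spread over 5 interactions: 1 of 49 keratins for DIO minus Con in E0771 less that in metM-Wnt-lung (6.72% of all genes), 1 for the same in metM-Wnt-lung less metM-Wnt-liver (11.5%), 1 for ConSul minus Con in E0771 less metM-Wnt-lung (7.81%), 1 for it in E0771 less metM-Wnt-liver (3.48%), and 3 for DIOSul minus DIO less ConSul minus Con within metM-Wnt-lung (11.4%).

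The keratins of epidermis were highest in single tumors of the DIOSul groups. In the 3 tumors high in skin genes, given as E0771 DIOSul 3, metM-Wnt-lung DIOSul 2 and metM-Wnt-liver DIOSul 4, Krt1 had 15.61, 15 and 13.68, whereas over all 28, 26 and 25 tumors of these lines its median was 4.50, 4.22 and 4.21. Krt10, its partner, had 14.35, 15 and 14.12, against medians of 5.00, 5.69 and 5.85. Both genes thus stood far above nearly all other tumors in each of the 3. Krt1 passed the highest of the 57 tumors outside DIOSul (6.04) in 6 of the 22 DIOSul tumors: these 3, metM-Wnt-lung DIOSul 3 (7.02) and 5 (8.03), and metM-Wnt-liver DIOSul 7 (7.83). The basal pair was raised in the same tumors, Krt5 at 12.88, 11.79 and 10.02 and Krt14 at 12.86, 12.40 and 10.39.

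Of the 49 keratins, 10 were over 1 log2 unit above the mean of the other tumors of their group in all 3. Of these, 8 were skin and hair keratins: Krt1, Krt5, Krt10, Krt14, Krt15, Krt17, Krt77 and Krt79. Krt77 and Krt79, chosen after their values were seen, were classed here as suprabasal epidermal. The other two were Krt23 and Krt80. The tumors also differed in simple-epithelial keratins, of which 5 of 6 met this in metM-Wnt-liver DIOSul 4 (all but Krt20, with Krt8 2.86 above), 2 of 6 in metM-Wnt-lung DIOSul 2 and 1 of 6 in E0771 DIOSul 3. The mean centred score of the 16 epithelial genes that are not keratins was 1.12, 0.67 and 1.03 in them, and at most 0.33 in the other DIOSul tumors. Of the 20 hair shaft and inner root sheath keratins, 0 met this in all 3 tumors and 5 in at least 1; Krt71 reached 7.23 in metM-Wnt-liver DIOSul 4, against 3.62 in E0771 DIOSul 3 and 4.02 in metM-Wnt-lung DIOSul 2. Krt16, a keratin of stressed epidermis, was at 10 and 10.02 in the E0771 and metM-Wnt-lung tumors and at 4.73 in the metM-Wnt-liver tumor. Some other DIOSul tumors were moderately high, metM-Wnt-lung DIOSul 3 with 10.72 and metM-Wnt-liver DIOSul 7 with 9.49 for Krt10.

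All 3 tumors were in DIOSul groups, 1 of 8, 1 of 7 and 1 of 7 tumors, and no keratin was called for DIOSul against DIO in any line. Krt10 differed by 0.92 (SE 0.89, adjusted p = 0.628) in E0771, 2.84 (SE 0.90, adjusted p = 0.166) for metM-Wnt-lung and 1.72 (SE 0.85, adjusted p = 0.664) for metM-Wnt-liver. Without the 3 tumors, a fit read for single keratins after seeing the data, the Krt10 differences were -0.25 (SE 0.34, adjusted p = 0.761), 1.73 (SE 0.53, adjusted p = 0.215) and 0.62 (SE 0.42, adjusted p = 0.939), and those of Krt1 were -0.06, 1.24 and 0.69. In metM-Wnt-lung the remaining 6 DIOSul tumors had 5.73 to 10.72 for Krt10 (mean 7.24), against 5.25 to 5.84 (mean 5.52) in the 7 DIO tumors, so they overlapped only at the low end. The 22 skin keratinocyte genes had 0 called in each line, with median differences of 0.45, 0.50 and 0.34. What part skin cells in the sampled tissue have in these values was not tested.

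**Figure D5:**
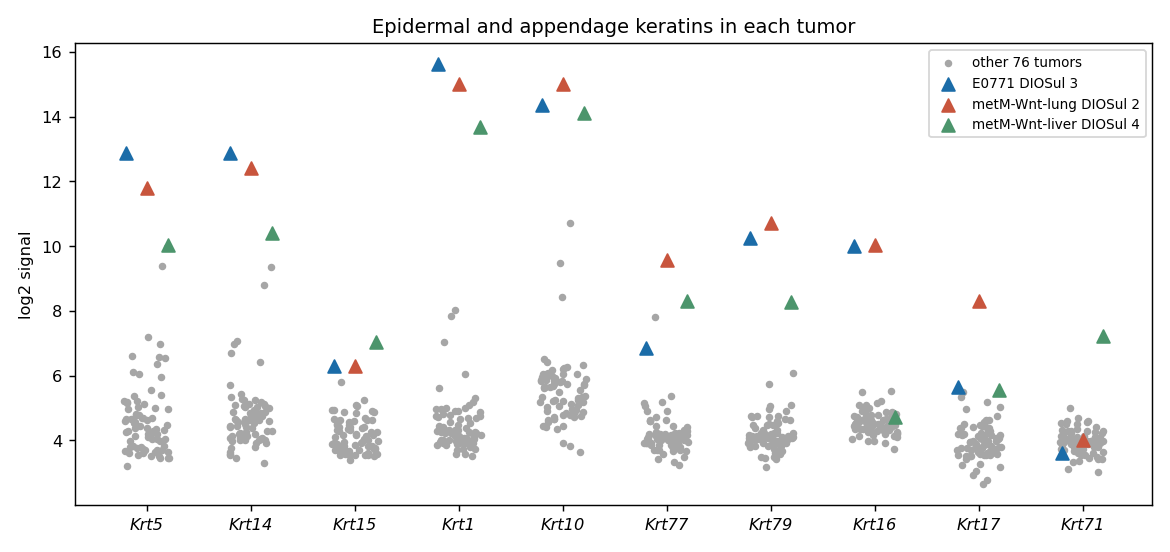
Log2 signals of 10 epidermal and appendage keratins (horizontal axis) in each tumor (vertical axis), with the 3 tumors high in skin genes as colored triangles and the other 76 tumors as grey points. The triangles lie between 13.68 and 15.61 for Krt1 and between 14.12 and 15 for Krt10, above all grey points.

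Separately from skin, replicate 4 of metM-Wnt-lung DIO and replicate 4 of metM-Wnt-lung Con were high in luminal and basal keratins at once. In the DIO and the Con tumor, Krt7 was 8.96 and 10.87, Krt18 was 9.07 and 10.46, and Krt19 was 9.52 and 11.52. Krt5 was 9.96 and 9.39, and Krt14 was 8.80 and 9.34. Epcam was 10.31 and 10.82 in them, and 1 other tumor, E0771 Con 3, passed 10 with 10.31.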

How the data were processed

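RNA of 79 whole mammary tumors was measured on Clariom S Mouse HT arrays. The authors normalized the arrays with the SST-RMA method in the Transcriptome Analysis Console and deposited log2 values; whether the 3 lines were normalized together is not given in the sources used here, and the number of tumors per group (4 to 8) limits the precision. Groups came from the sample labels, which name separate mice. Of 22206 probe sets, 19572 had 1 gene symbol in the platform annotation and 2634 had none; the brightest probe set of each symbol was kept, which left 19505 genes. No filter on dim genes and no further normalization was used.

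Differences were tested with limma 3.58.1 (lmFit, contrasts.fit, eBayes) in R 4.3.3, with Benjamini-Hochberg adjustment over the 19505 genes; a call means an adjusted p under 0.05. Line differences are means over the 4 conditions with equal weight in 1 fit of all arrays, condition differences come from 1 fit per line, and the 12 interactions from the fit of all arrays. Partner correlations used 100000 two-sided permutations (SciPy 1.17.1, NumPy 2.4.6). The fits were tested on simulated data. Figures were drawn with matplotlib 3.10.9 in Python 3.11.15, with pandas 2.3.3.

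The keratin genes, their classes and the marker lists were chosen with earlier results of these data known. Named with values were 13 keratins listed in advance and, per comparison, up to 3 called keratins in each direction with the largest difference, which added 8. The alternatives were another normalization, other limma settings, arrays left out 1 at a time, arrays high in skin genes or of wider spread left out or modelled, marker levels as covariates, single conditions, other sets of groups in the fit, and a replicate block. Where arrays of wider spread were left out of a line comparison, their condition was left out of the average for both lines.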

Additional observations from a re-analysis of the deposited data

Results flagged for a closer look

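In each of 252 groups (21 named keratins in 12 groups), the highest or lowest tumor was checked for a gap to the nearest other tumor above Dixon's critical value. This marked 51 values in 26 tumors, 46 high and 5 low, where chance marks about 1 in 20 groups. The marks gathered in a few tumors.

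The 3 DIOSul tumors high in skin genes held 8 marks (E0771), 7 (metM-Wnt-liver) and 6 (metM-Wnt-lung), and metM-Wnt-lung DIO 4 also held 6. E0771 DIOSul 3 stood above its group in Krt1 (15.61), Krt10 (14.35), Krt5 (12.88), Krt14 (12.86), Krt16 (10), Krt80 (8.58), Krt15 (6.29) and Krt23 (4.97). metM-Wnt-lung DIOSul 2 did so in Krt1 (15), Krt14 (12.40), Krt16 (10.02), Krt80 (8.33), Krt17 (8.30) and Krt23 (5.67), and metM-Wnt-liver DIOSul 4 in Krt1 (13.68), Krt14 (10.39), Krt5 (10.02), Krt71 (7.23), Krt15 (7.05), Krt17 (5.54) and Krt23 (5.19).

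Keratins of mammary epithelium marked other tumors. metM-Wnt-lung DIO 4 stood high in Krt5 (9.96), Krt19 (9.52), Krt18 (9.07), Krt7 (8.96), Krt14 (8.80) and Krt17 (5.34), metM-Wnt-lung Con 4 in Krt14 (9.34), E0771 Con 3 in Krt18 (9.51), E0771 DIOSul 5 in Krt19 (8.61) and Krt18 (7.08), metM-Wnt-liver DIO 1 in Krt14 (7.08) and Krt5 (6.58), and metM-Wnt-liver Con 4 in Krt7 (7.37). Krt8 was low in metM-Wnt-lung DIOSul 1 (12.50). Krt20 was high in E0771 DIO 1 (7.71) and metM-Wnt-lung DIO 5 (6.12), and Krt80 in metM-Wnt-liver DIO 3 (9.33).

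The remaining marks were small in size. High values were Krt10 in metM-Wnt-lung Con 5 (6.00), Krt17 in metM-Wnt-lung ConSul 2 (4.97), Krt26 in metM-Wnt-lung ConSul 3 (5.01), Krt28 in metM-Wnt-lung ConSul 1 (4.21), Krt33a in E0771 DIOSul 2 (4.87), Krt71 in metM-Wnt-lung DIOSul 6 (4.23), Krt76 in metM-Wnt-lung ConSul 6 (4.67), and Krt39 in metM-Wnt-liver DIO 4 (4.6) and metM-Wnt-lung DIO 2 (4.46). Low values were Krt15 in metM-Wnt-liver ConSul 4 (3.82), Krt1 in metM-Wnt-lung ConSul 4 (3.74), Krt36 in metM-Wnt-lung Con 1 (3.08) and Krt71 in E0771 Con 1 (3.11).

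The effect of ConSul against Con differed between metM-Wnt-lung tumors and those of metM-Wnt-liver (limma interaction, 29.9% of all genes called) in 11 keratins. As the metM-Wnt-lung effect less the metM-Wnt-liver effect, the differences were -6.43 for Krt19, -4.59 for Krt7, -4.35 for Krt18, 1.76 for Krt20, 1.26 for Krt76, -1.17 for Krt39 and -0.81 for Krt28. Among keratins chosen after their values were seen, they were 1.07 for Krt12, 0.95 for Krt222, -0.66 for Krt82 and 0.62 for Krt35. Both groups of wider spread enter this contrast.

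The other interactions called 7 differences. For ConSul against Con, Krt7 differed by 2.88 between E0771 and metM-Wnt-lung (7.81% of all genes called) and Krt76 by 1.0 between E0771 and metM-Wnt-liver (3.48%). For DIO against Con, Krt75, chosen after its values were seen, differed by -0.86 between E0771 and metM-Wnt-lung (6.72%) and Krt80 by -1.89 between metM-Wnt-lung and metM-Wnt-liver (11.5%). Within metM-Wnt-lung, DIOSul minus DIO less ConSul minus Con was 2.68 for Krt7, -0.87 for Krt33a and -0.74 for Krt76 (11.4%). The wider spread of the metM-Wnt-lung Con or metM-Wnt-liver ConSul arrays enters each of these 7.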

How the results depend on the processing

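Counts below are of keratins called. Of 426 values of single keratins under alternatives other than leaving out a tumor, 343 kept direction and call, 69 lost the call and 14 changed sign. Lines within single conditions: E0771 against metM-Wnt-lung called 6 in Con, 7 in ConSul and 8 in DIO, E0771 against metM-Wnt-liver 9, 3, 8 and, in DIOSul, 10, and metM-Wnt-lung against metM-Wnt-liver 6, 6 and 2 in Con, ConSul and DIO, where 41.3%, 43.1% and 44.2%, then 45.6%, 34.8%, 44.1% and 47.3%, then 27.2%, 11.1% and 8.45% of all genes were called; the signs that turned were E0771 less metM-Wnt-lung in Con for Krt7 (-0.48), Krt18 (-0.57) and Krt19 (-0.58), in DIO and DIOSul for Krt33a (-0.06 and -0.05), and E0771 less metM-Wnt-liver in ConSul for Krt18 (-0.49), Krt19 (-0.98) and Krt76 (0.57). metM-Wnt-lung against metM-Wnt-liver called 2 under quantile normalization (17.6% of all genes), array weights (20%) and either set of covariates (18.1% each). It also called 2 in a test of only genes above the median signal (32.9% of these) and over DIO and DIOSul alone, without the arrays of wider spread (15.2%). With only genes above the median signal, where Krt8 and Krt80 alone remained tested, the counts were 1 and 1 for E0771 against metM-Wnt-lung and metM-Wnt-liver, 2 and 1 for metM-Wnt-lung DIO and ConSul against Con, and 0 for metM-Wnt-liver ConSul and E0771 DIO against Con.

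For E0771 DIO against Con the count was 0 with trend and robust settings (5.61% of all genes), with skin and muscle covariates (3.97%), with the replicate block (2.99%) and with only those groups in the fit (1.95%). It was 5 with array weights (19.4% of all genes) and 3 with all lines in 1 fit (5.94%). For E0771 DIOSul against DIO it was 6 with array weights (24.5%). For metM-Wnt-liver ConSul against Con it was 1 with array weights (11.1%), 5 with skin and muscle covariates (10.3%) and 0 with epithelial and adipocyte covariates (2.61%). For metM-Wnt-lung ConSul against Con it was 4 with all lines in 1 fit (19.6%). With epithelial and adipocyte covariates, added after seeing the data, metM-Wnt-lung DIO and ConSul against Con called 1 each, where 0.456% and 1.43% of all genes were called. The differences turned to 0.65 and 0.22 for Krt18 and to 1.22 and 0.71 for Krt19. In the fit with a term for the wider spread, metM-Wnt-lung DIO (0.672% of all genes) and ConSul and metM-Wnt-liver ConSul (0.0513% each) against Con called 0 each. The ConSul counts are 1 result, since that fit has 1 ConSul effect for both metM-Wnt lines, at -0.52 for Krt7 and -0.48 for Krt19. Its DIO effect is shared by both lines as well, and is not one of metM-Wnt-lung alone. For Krt8 with Krt18, r without removing condition means was -0.48 for metM-Wnt-lung and 0.41 for metM-Wnt-liver, and r for Krt5 with Krt14 in E0771 was 0.23 without the tumor high in skin genes. Why a call was lost was not tested.

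Leaving out 1 tumor at a time gave 13 to 17 calls for E0771 against metM-Wnt-liver, 14 to 18 against metM-Wnt-lung, 1 to 2 for metM-Wnt-lung against metM-Wnt-liver, 0 to 2 for E0771 DIO, 8 to 12 for metM-Wnt-lung DIO, 4 to 9 for metM-Wnt-lung ConSul and 0 to 4 for metM-Wnt-liver ConSul against Con, and 0 to 0 in the other 5 condition counts. The 4 for metM-Wnt-lung ConSul arose without Con replicate 4 or ConSul replicate 5. Same-numbered tumors of different groups had correlations of deviations from -0.31 to 0.6, with 5 of 57 pairs over 0.1 (2 each in metM-Wnt-lung DIO with Con and DIOSul with DIO, 1 in E0771 ConSul with Con), so not every pair did and the numbers were not taken to pair them. With the replicate block the counts were 17, 15 and 1 between lines (62.3%, 61.7% and 16.7% of all genes). Against Con they were 0 for E0771 DIO (2.99%), 9 and 7 for metM-Wnt-lung DIO and ConSul (26.4% and 18.8%) and 2 for metM-Wnt-liver ConSul (8.07%). The values used give no measure of background, so signal over background is unknown here.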
